A study of Nothobranchius furzeri with 168 samples.

Results

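The genes described here are 100 of the 26739 gene IDs measured in brain and skin of the turquoise killifish, Nothobranchius furzeri. They were chosen by their day 21 values, because these set GRZ-D, a short-lived strain, apart from MZCS-0403 and MZM-0403, which live longer, in the brain of males, while the skin of the same fish showed little difference. The level used for the choice was the group mean of log2(CPM + 1), where CPM scales each count by the total of its library. A gene had to reach a level of 2 (3 CPM) in the skin of each strain, differ by less than 0.5 between GRZ-D and either other strain in skin, and differ in the same direction from both in brain. Of all IDs, 12223 met the skin level, 7173 of these were also alike in skin, and 5365 of these also had the same direction in brain. The 100 kept have the largest values of the smaller of the 2 absolute brain differences. Among them 64 were higher in GRZ-D brain and are called the higher genes, and 36 were lower and are called the lower genes.

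The turquoise killifish hatches, matures and ages within months in seasonal pools, and inbred and wild-derived strains kept in the laboratory differ in lifespan. Brain is made up largely of neurons and glia, and skin of epithelial, pigment and connective tissue cells, yet many genes are used in both. A genetic difference near a gene can alter its expression in every tissue or in a single one, depending on which regulatory sequences and factors the tissue uses. The deposited IDs carry no gene names and none matched a RefSeq gene table, so the genes are described by ID, and functions and sequences are not given.

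The fish were males of GRZ-D at day 21 (n = 8), day 35 (n = 6), day 100 (n = 7) and day 147 (n = 6), of MZCS-0403 at day 21 (n = 6), day 39 (n = 4), day 147 (n = 3) and day 287 (n = 2), and of MZM-0403 at day 21 (n = 6), day 35 (n = 5) and day 287 (n = 6). Each fish gave 1 brain and 1 skin library, no treatment is recorded, and each library stands for 1 labelled fish. Females entered no comparison of groups, and 5 MZM-0403 females of day 147 are described without a test at the end. The libraries used held 12376397 to 41254724 counts. Each of the 118 libraries used correlated more closely across genes with the day 21 mean profile of its labelled tissue (r from 0.899 to 0.989) than with that of the other tissue (0.339 to 0.481). Day 49 was left out, because 16 libraries of 8 other fish, all 6 GRZ-D males of that age among them, were at odds with their tissue label. In whole tissue, fewer cells of a type and less RNA per cell cannot be told apart. Cell type markers could not be looked up without gene names, so the tissues were checked by these profiles and by 200 skin-dominant genes, those far higher in skin than in brain in all 3 strains at day 100 or 287. These held 17.0% to 51.1% of the counts in skin libraries of the later ages compared, and in brain libraries 0.257% to 0.866% in GRZ-D at day 35, 0.304% to 4.73% in MZM-0403 at day 35, 0.200% to 0.920% in MZCS-0403 at day 39, 0.161% to 0.408% in GRZ-D at day 147 and 0.120% to 0.216% in MZCS-0403 at day 147. At day 21, the age that chose the genes, they held 0.248% to 0.579% of brain counts in GRZ-D. In MZCS-0403 brain of that age they held 0.291% to 1.485%, and in MZM-0403 brain 0.179% to 0.319%. The part of these shares in the choice of the genes was not tested. Of the 100 genes, 3 are among the 200 skin-dominant genes. At day 35, 200 brain-dominant genes chosen likewise held at most 0.157% of skin counts in GRZ-D and 0.0865% in MZM-0403. In MZCS-0403 skin the brain-dominant genes held at most 0.0469% at day 39 and 0.0505% at day 147. In GRZ-D skin at day 147 they held 0.0309% to 0.875%, with a median of 0.052%, and replicate 3 was the highest. That library stayed in the day 147 comparisons.

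At day 21, the age that chose the genes, the values are a description only. The higher genes had a median brain level of 4.22 in GRZ-D, against 3.22 in MZCS-0403 and 2.93 in MZM-0403. For the lower genes the median brain level was 2.95 in GRZ-D, against 3.79 in MZCS-0403 and 3.96 in MZM-0403. In skin the medians of the higher genes were 4.19 in GRZ-D, 4.06 in MZCS-0403 and 3.86 in MZM-0403, and those of the lower genes 4.01, 3.94 and 4.05 in the same order of strains. Most differences in brain were moderate. The smaller brain difference had a median of 0.84, reached 1 in 28 genes and 2 in 4, and was largest at 3.50. The last genes inside the limit stood at 0.6585 and 0.6575, and the first outside at 0.6555 and 0.6548. The longer-lived strains lay close to each other for most of the genes: the difference between MZCS-0403 and MZM-0403 in brain was under 0.5 in 90 of 100, with a median size of 0.14 and a largest value of 1.15.

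**Figure D1:**
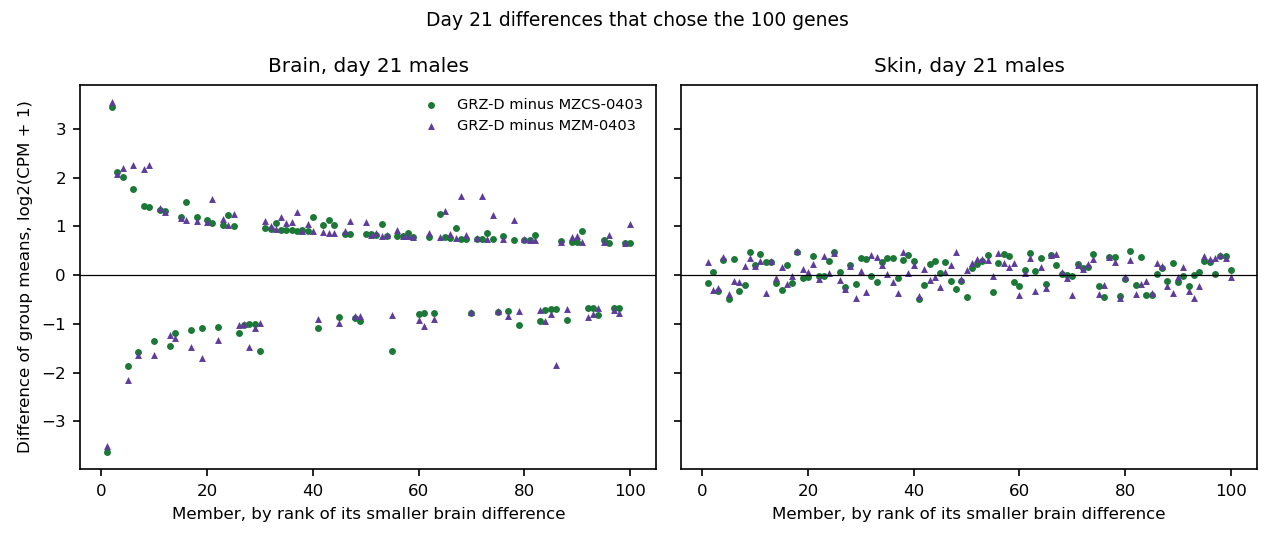
Differences between GRZ-D and each longer-lived strain at day 21, as differences of group means of log2(CPM + 1), for the 100 genes ordered by the smaller of their brain differences. Circles are GRZ-D minus MZCS-0403 and triangles GRZ-D minus MZM-0403. The brain differences lie at least 0.66 from 0, and the skin differences lie within 0.5 of 0, as the choice of the genes requires.

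Whether the brain differences were also present in older fish, which had no part in the choice, was asked first at day 35 against MZM-0403. In brain, 77 of the 100 genes differed in their day 21 direction and 3 differed against it. Of all 22362 genes tested, 49.1% differed in either direction (edgeR quasi-likelihood F-test on counts, called at a Benjamini-Hochberg adjusted p under 0.05). The higher genes were again higher in GRZ-D in 54 of 64 cases, where 23.3% of all genes were higher, and their median log2 fold change was 1.14. The lower genes were lower in 23 of 36 cases, where 25.8% of all genes were lower, with a median of -0.78. Over all genes the median log2 fold change was -0.03 and its median size 0.31. The 3 genes called against their direction were all higher genes. Of the MZM-0403 brain libraries of this age, those of replicates 7, 12 and 13 had over 1% of their counts in the skin-dominant genes. Without these and a day 21 library of MZCS-0403 above the same limit, a comparison added after the data were seen, the count was also 77. In that fit 9573 genes were called over all, against 10985. Only replicates 2 and 4 of the MZM-0403 brains of day 35 were left in it.

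Against MZCS-0403, sampled at day 39, the same GRZ-D day 35 libraries served again, so this comparison and the one with MZM-0403 share their GRZ-D fish. In brain, 75 genes differed in their day 21 direction and 2 against it, where 52.8% of all genes differed either way. The higher genes were higher in GRZ-D in 53 of 64 cases (25.8% of all genes) and the lower genes lower in 22 of 36 (27.1% of all genes). Median log2 fold changes were 1.04 for the higher genes and -0.93 for the lower genes.

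At day 147 the GRZ-D and MZCS-0403 fish are separate from those of day 35 and day 39. In brain, 67 genes differed in their day 21 direction and 6 against it, where 45.0% of all genes differed either way. The higher genes were higher in GRZ-D in 51 of 64 cases, where 23.1% of all genes were, and 2 were lower. The lower genes were lower in 16 of 36 cases, where 21.9% of all genes were, and 4 were higher. Their median log2 fold change was -0.38, against 1.03 for the higher genes. Of the 36 lower genes 12 were lower in GRZ-D in all 3 later comparisons, and of the 64 higher genes 48 were higher in all 3. Of all genes 8.02% were lower in all 3 and 8.09% higher in all 3, and the first 2 comparisons share their GRZ-D fish. Of the 100, 17 were called in their day 21 direction in none of the 3, of which 7 were higher genes and 10 lower genes. No matching share of all genes was computed for these counts, so they are a description only.

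**Figure D2:**
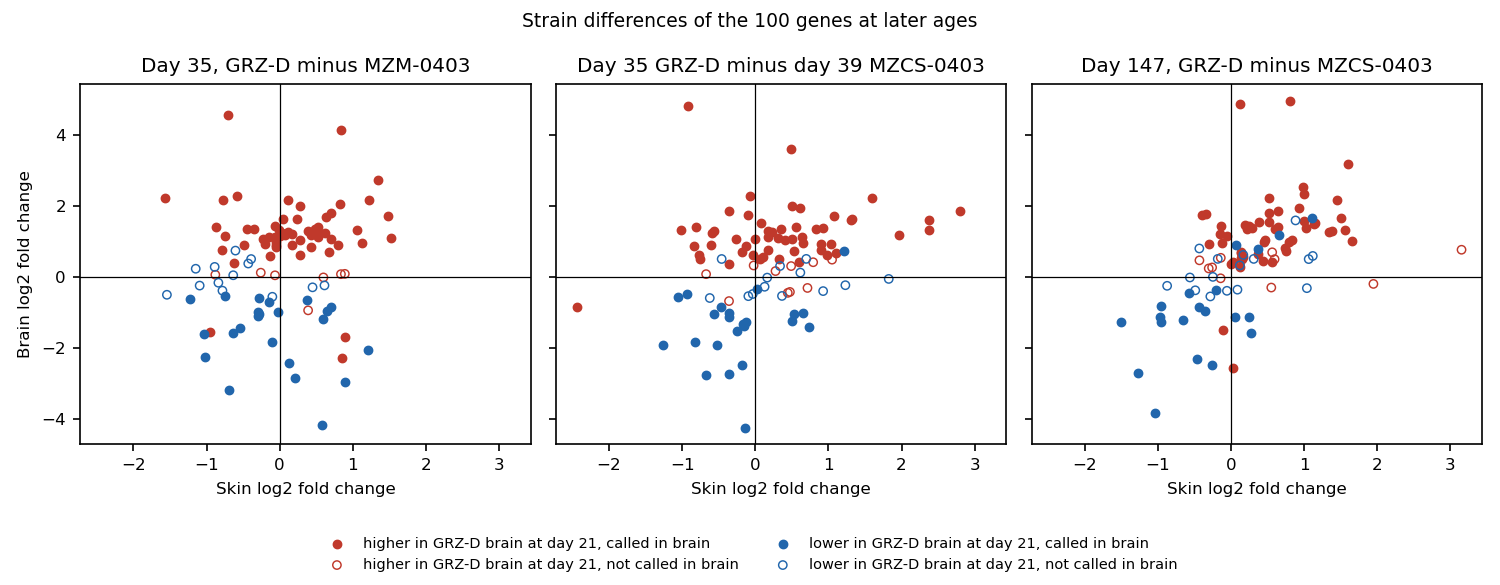
Log2 fold change in brain (vertical axis) against that in skin (horizontal axis) for the 100 genes, GRZ-D minus the other strain, in the 3 comparisons of older fish. Filled points were called in brain at an adjusted p under 0.05. Most genes higher in GRZ-D brain at day 21 lie above 0, with medians of 1.14, 1.04 and 1.03, while the lower genes at day 147 lie on both sides of 0, with a median of -0.38.

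Libraries of single fish were also compared directly, without a model. Over all ages but days 21 and 49, every one of the 19 GRZ-D brain libraries lay on the same side of every one of the 20 brain libraries of the other strains in 37 of the 100 genes, where 3.01% of all 25682 genes with a count separated either way. These were 32 higher genes, where 2.13% of all genes had GRZ-D above every other library, and 5 lower genes, where 0.88% had GRZ-D below. In none did the libraries separate against the day 21 direction. In skin 1 gene separated in its day 21 brain direction, a lower gene, where 0.708% of 25701 genes separated either way.

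The skin of these fish was compared in the same way. At day 35, 43 of the 100 genes differed between GRZ-D and MZM-0403 in skin, close to the 38.7% of all 22353 genes that did, and 30 of the 43 had the direction of the day 21 brain difference. These 30 were 20 of the 64 higher genes, where 16.6% of all genes were higher, and 10 of the 36 lower genes, where 22.1% were lower. In the skin of GRZ-D at day 35 and MZCS-0403 at day 39, 48 genes differed, where 43.6% of all genes did, 32 of them in the day 21 brain direction. These 32 were 27 of the 64 higher genes, where 22.0% of all genes were higher, and 5 of the 36 lower genes, where 21.6% were lower. At day 147, 32 genes differed in skin from MZCS-0403, where 26.6% of all genes did, and 31 of the 32 had the day 21 brain direction. Of those 31, 24 were among the 64 higher genes, where 15.4% of all genes were higher, and 7 among the 36 lower genes, where 11.2% were lower. With only the groups compared in the fit, the count of 31 was 13, and 1905 genes were called over all, against 5942. The same count was 23 to 33 when 1 library at a time was left out, GRZ-D replicate 3 among them. The label that the differences are confined to brain thus held at day 21, by the choice of the genes, and not for all of them at later ages. Genes called in their day 21 direction in brain and not called in skin numbered 42 at day 35 against MZM-0403, 39 against MZCS-0403 at day 39 and 40 at day 147. Of all genes tested in both tissues, 28.8%, 27.4% and 30.9% were called in brain in either direction and not in skin in these comparisons. By direction, the higher genes numbered 29, 24 and 30 of 64, where 13.8%, 12.5% and 15.5% of all genes were higher in brain and not called in skin. The lower genes numbered 13, 15 and 10 of 36, where 15.0%, 15.0% and 15.4% of all genes were lower in brain and not called in skin. A gene that misses the threshold in skin is not shown to be equal there.

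The direction of the skin calls at the younger ages depended on how libraries were scaled. With TMM, the trimmed mean scaling used here, 24 of the genes were higher in GRZ-D skin and 19 lower than in MZM-0403 at day 35, and with column totals 14 were higher and 32 lower. Against MZCS-0403 at day 39 the split was 35 higher and 13 lower with TMM, and 16 higher and 32 lower with column totals. At day 147 most calls were higher under either scaling, with 25 higher and 7 lower with TMM, and 21 higher and 9 lower with column totals. At the younger ages the median log2 fold change of all skin genes was -0.06 and 0.06 with TMM and -0.34 and -0.31 with column totals. The choice of the genes used column totals. In brain both scalings gave splits within 1 gene of each other in all 3 strain comparisons.

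Whether the strain difference itself differed between brain and skin was tested in a joint fit of the libraries of both tissues. This fit did not pair the libraries by fish. At day 35 against MZM-0403, the brain difference differed from the skin difference in the day 21 direction in 56 of the 100 genes and against it in 6, where 32.0% of all 21556 genes differed either way. These 56 were 41 of the 64 higher genes (14.2% of all genes had a positive tissue difference) and 15 of the 36 lower genes (17.8% had a negative one). Against MZCS-0403 at day 39, 43.8% of all genes differed, 22.2% positive and 21.6% negative. The count in the day 21 direction there was 57, of which 38 were higher genes and 19 lower genes, with 4 against. At day 147 it was 20, of which 15 were higher genes and 5 lower genes, with 1 against, where 9.85% of all genes differed (5.74% positive and 4.11% negative). With the fish as a block, since each fish gave both tissues, it was 18, and 1401 genes were called over all, against 2196 without the block. In 16 genes, 12 higher and 4 lower, the tissues differed in the day 21 direction in all 3 comparisons, 2 of which share their GRZ-D fish, where 0.908% of all genes were positive in all 3 and 1.33% negative. With column totals in place of TMM the calls at day 35 against MZM-0403 were 54 positive and 13 negative, against 43 and 19 with TMM, and those with MZCS-0403 at day 39 were 46 and 16, against 39 and 22. The median of this tissue difference over all genes was 0.39 and 0.29 on the log2 scale with column totals.

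How many of the genes were higher in brain than in skin depended on scaling. With TMM, in GRZ-D at day 35, 22 of them were higher in brain than in skin and 58 lower, where 81.0% of all 21556 genes differed between the tissues. Of all genes tested, 43.1% were higher in brain and 37.8% lower. In MZM-0403 at day 35, 13 were higher in brain than in skin and 73 lower, where 78.0% of all genes differed. There 38.7% of all genes were higher in brain and 39.4% lower. Among the higher genes 17 were higher in brain than skin in GRZ-D and 7 in MZM-0403. Column totals gave 47 higher and 35 lower in GRZ-D and 25 higher and 50 lower in MZM-0403, with a median over all genes of 1.35 and 0.77 on the log2 scale. The choice set a minimum level in skin but not in brain, and at day 21 the level was under 1 (1 CPM) in the lowest brain group in 8 of the genes.

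Nfu_g_1_010938 and Nfu_g_1_004257 were the higher genes with the largest differences held at both ages, among the 41 higher genes whose libraries did not overlap at day 35 against MZM-0403 and at day 147 against MZCS-0403, with both calls positive and at least 5 CPM in the higher group. Of all genes 5.33% met these conditions. Both genes also lead the day 21 order of the higher genes. Both were called in all 3 brain comparisons, near 0 in brain of the longer-lived strains and well expressed in skin of all strains. In brain, Nfu_g_1_010938 had a lowest, median and highest value of 11.3, 12.2 and 13.6 CPM in GRZ-D at day 35, against 0.0425, 0.314, 0.0430, 1.92 and 0.102 CPM in the MZM-0403 fish of that age and 0.445, 0.151, 0.338 and 0.823 CPM in the MZCS-0403 fish of day 39. At day 147 it had 13.7, 14.6 and 16 CPM in GRZ-D brain as lowest, median and highest, against 1.09, 0.106 and 0.169 CPM in MZCS-0403. The strains did not overlap at either age, and a single MZM-0403 fish, replicate 12 with 58 counts, stood above the other 4, which had 1 to 9 counts. The log2 fold change of Nfu_g_1_010938 in brain was 4.55 ± 0.44 (SE) against MZM-0403 at day 35 (adjusted p = 3.14e-12, edgeR), 4.81 ± 0.51 against MZCS-0403 at day 39 (adjusted p = 3.91e-11, edgeR) and 4.86 ± 0.57 at day 147 (adjusted p = 8.02e-10, edgeR). With so few counts in the longer-lived strains the size of these folds is uncertain: it ran from 4.25 to 6.43 over the alternatives at day 35.

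In skin Nfu_g_1_010938 was lower in GRZ-D at day 35 and not called at day 147. At day 35 its skin had a lowest, median and highest value of 10.2, 14.3 and 22.7 CPM in GRZ-D, against 35.7, 24.4, 25.3, 45.6 and 25.4 CPM in MZM-0403, with no overlap. The log2 fold change in skin was -0.71 ± 0.24 (adjusted p = 0.0149, edgeR) at day 35 and 0.12 ± 0.28 at day 147 (adjusted p = 0.781, edgeR). The brain and skin differences of Nfu_g_1_010938 differed by 5.18 ± 0.64 on the log2 scale at day 35 (adjusted p = 1.47e-05, edgeR) and by 4.77 ± 0.55 at day 147 (adjusted p = 7.63e-05, edgeR). With age its level in GRZ-D skin rose by 2.28 ± 0.24 on the log2 scale at day 147 over day 35 (adjusted p = 4.32e-11, edgeR), to 65.5, 122 and 158 CPM as lowest, median and highest. In GRZ-D brain the same age difference was 0.27 ± 0.32 (adjusted p = 0.587, edgeR).

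Nfu_g_1_004257 had a lowest, median and highest brain value of 6.12, 7.26 and 10.3 CPM in GRZ-D at day 35, against 0.297, 0.174, 0.602, 0.0991 and 0.790 CPM in MZM-0403 and, at day 39, 1.08, 0.151, 0.387 and 0.823 CPM in MZCS-0403. At day 147 it had 4.97, 6.81 and 8.24 CPM in GRZ-D brain, against 0.471, 0.106 and 0 CPM in MZCS-0403. Every GRZ-D brain was above every brain of these longer-lived fish, whose libraries held 0 to 31 counts. Its brain log2 fold change was 4.14 ± 0.40 at day 35 against MZM-0403 (adjusted p = 1.86e-12, edgeR), 3.59 ± 0.42 against MZCS-0403 at day 39 (adjusted p = 6.86e-10, edgeR) and 4.95 ± 0.55 at day 147 (adjusted p = 1.89e-10, edgeR). In skin Nfu_g_1_004257 had 17.7, 22.9 and 32.8 CPM as lowest, median and highest in GRZ-D at day 35, against 11.1, 15.4, 14.7, 13.1 and 23.6 CPM in MZM-0403. These ranges overlapped through 1 MZM-0403 fish, and GRZ-D skin was higher, by 0.83 ± 0.29 on the log2 scale (adjusted p = 0.0186, edgeR). The tissue difference of its strain difference was 3.24 ± 0.45 at day 35 (adjusted p = 4.4e-05, edgeR) and 4.17 ± 0.80 at day 147 (adjusted p = 0.0039, edgeR).

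Nfu_g_1_008420 and Nfu_g_1_012743 were the corresponding lower genes, 2 of 9 that met the same conditions with GRZ-D lower, as 2.84% of all genes did. In brain, Nfu_g_1_008420 had a lowest, median and highest value of 4.22, 4.89 and 9.05 CPM in GRZ-D at day 35, against 120, 77.6, 68.0, 99.4 and 107 CPM in MZM-0403 and 114, 94.3, 84.1 and 116 CPM in MZCS-0403 of day 39. At day 147 the values were 6.83, 7.61 and 8.92 CPM in GRZ-D, against 100, 130 and 88.5 CPM in MZCS-0403. The strains were far apart at every age. The log2 fold change of Nfu_g_1_008420 in brain was -4.18 ± 0.16 at day 35 against MZM-0403 (adjusted p = 2.26e-27, edgeR), -4.25 ± 0.17 against MZCS-0403 at day 39 (adjusted p = 4.46e-27, edgeR) and -3.83 ± 0.17 at day 147 (adjusted p = 8.25e-25, edgeR).

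In all 3 strains the median brain level of Nfu_g_1_008420 was lowest at day 21. Its day 21 brain values were 2.25, 2.61 and 2.76 CPM in GRZ-D as lowest, median and highest, against 31.4, 41.9 and 56.6 CPM in MZCS-0403 and 33.7, 40.0 and 44.4 CPM in MZM-0403. At day 100 GRZ-D had 5.03, 5.98 and 8.46 CPM, and at day 287 MZM-0403 had 95.2, 115 and 143 CPM. In skin Nfu_g_1_008420 had 10.2, 26.9 and 46.2 CPM in GRZ-D at day 35, against 22.2, 24.6, 9.32, 18 and 26.8 CPM in MZM-0403. The skin ranges overlapped, and the log2 fold change was 0.58 ± 0.39 (adjusted p = 0.238, edgeR). The tissue difference of the strain difference was -4.81 ± 0.45 at day 35 (adjusted p = 9.64e-07, edgeR) and -2.78 ± 0.75 at day 147 (adjusted p = 0.0265, edgeR). MZM-0403 at day 35 had more of Nfu_g_1_008420 in brain than in skin, by 1.42 ± 0.32 on the log2 scale (adjusted p = 0.000421, edgeR), and GRZ-D less, by -3.39 ± 0.32 (adjusted p = 2.6e-09, edgeR).

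Nfu_g_1_012743 was a skin gene in all strains, with a smaller brain signal that was lower in GRZ-D. In brain it had a lowest, median and highest value of 0.647, 0.820 and 1.35 CPM in GRZ-D at day 35, against 6.59, 6.87, 11.4, 7.53 and 6.17 CPM in MZM-0403 and 5.27, 5.16, 3.58 and 5.27 CPM in MZCS-0403 of day 39. At day 147 it had 0.383, 1.15 and 1.54 CPM in GRZ-D, against 4.90, 8.99 and 7.38 CPM in MZCS-0403, again without overlap. Its brain log2 fold change was -3.20 ± 0.29 at day 35 (adjusted p = 1.86e-13, edgeR), -2.49 ± 0.30 with MZCS-0403 at day 39 (adjusted p = 7.51e-10, edgeR) and -2.71 ± 0.30 at day 147 (adjusted p = 2.34e-10, edgeR). In skin at day 147 Nfu_g_1_012743 was also lower in GRZ-D, by -1.27 ± 0.36 (adjusted p = 0.00694, edgeR), with 6.63, 11.1 and 57.8 CPM in GRZ-D against 35.3, 37.5 and 64.6 CPM in MZCS-0403, which overlap through 1 GRZ-D fish. The tissue difference was called at day 35 (-2.57 ± 0.27, adjusted p = 2.95e-06, edgeR) and not at day 147 (-1.39 ± 0.81, adjusted p = 0.300, edgeR).

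**Figure D3:**
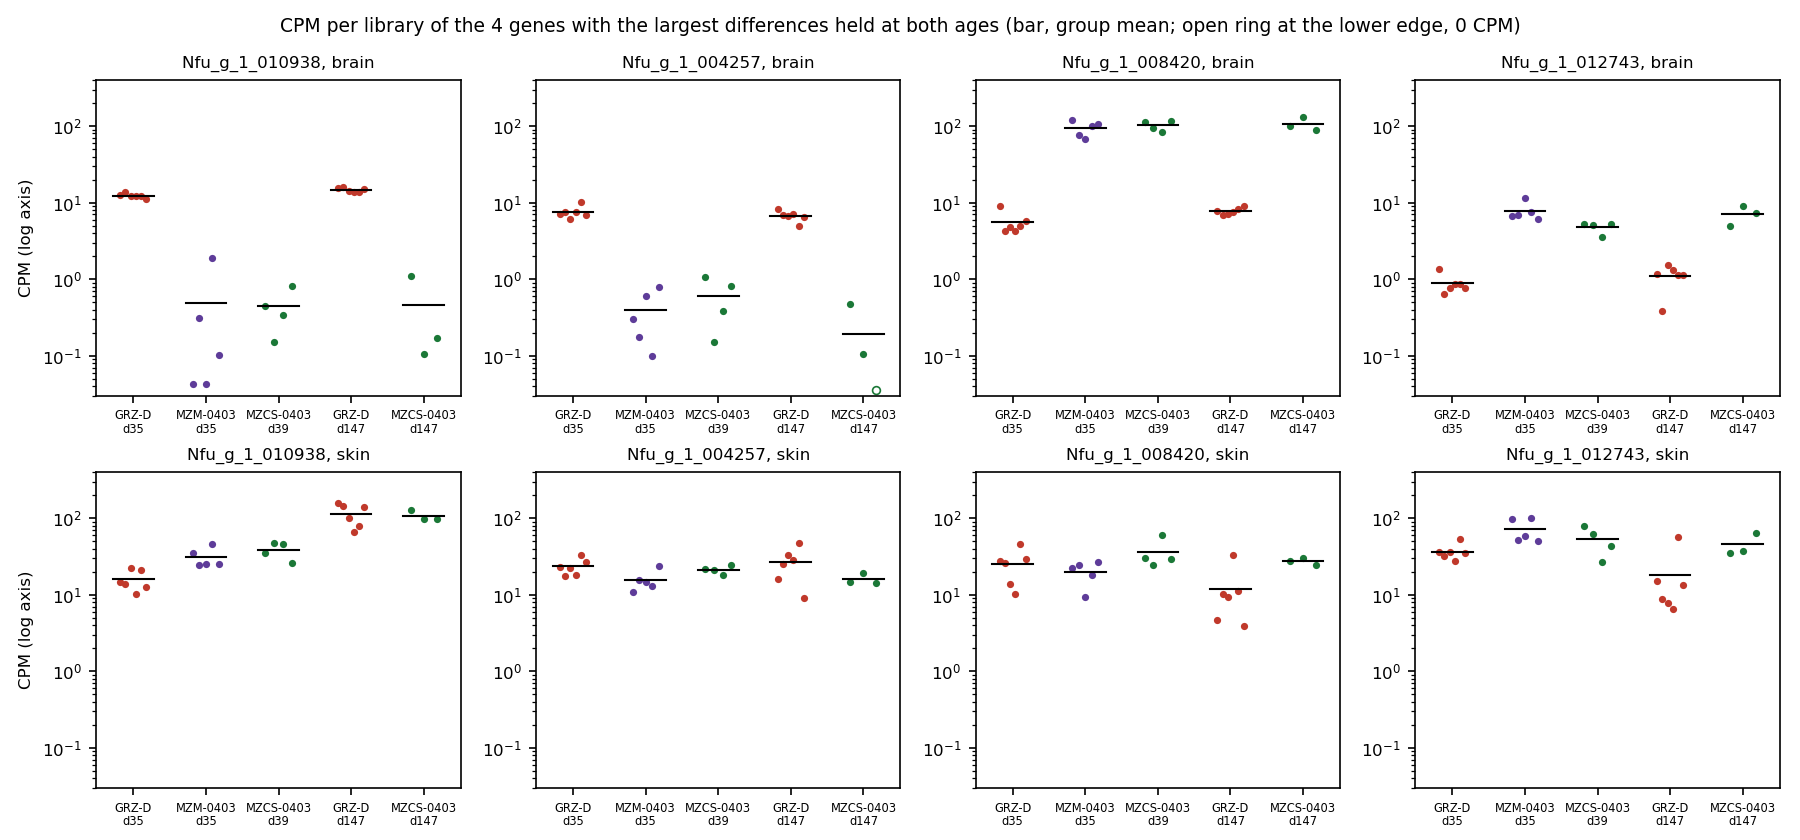
CPM on a log axis in each brain library (upper row) and skin library (lower row) of the 2 higher and the 2 lower genes with the largest differences held at both ages. Points are fish, bars are group means, and an open ring at the lower edge is a library with 0 CPM. In brain the GRZ-D points stand apart from both other strains at both ages, as with 11.3 to 13.6 CPM against 0.0425 to 1.92 CPM for Nfu_g_1_010938 at day 35. Brain libraries without overlap against MZM-0403 at day 35 and MZCS-0403 at day 147 were a condition for naming these genes. In skin the strains lie closer together, with some differences called. The skin log2 fold change was -0.71 for Nfu_g_1_010938 at day 35 against MZM-0403 and -1.27 for Nfu_g_1_012743 at day 147 against MZCS-0403.

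A few genes were called against their day 21 direction, and the calls of the higher genes named here depended on single fish. Nfu_g_1_015969, a higher gene with 1533 to 4818 CPM in GRZ-D skin at day 35, is among the skin-dominant genes. In brain at day 147 it had a lowest, median and highest value of 1.81, 2.44 and 3.72 CPM in GRZ-D, against 36.1, 4.12 and 3.58 CPM in MZCS-0403. Its log2 fold change there was -2.57 ± 0.76 (adjusted p = 0.00504, edgeR), and without replicate 1 of MZCS-0403 it was -0.65 (adjusted p = 0.601, edgeR). At day 35 Nfu_g_1_015969 had 64.3 CPM in 1 GRZ-D brain and 116 CPM in 1 MZM-0403 brain, and the other brains of those groups had 7.55 to 15.2 CPM in GRZ-D and 9.33 to 26.4 CPM in MZM-0403. At day 21 the 8 GRZ-D brains held 3.95 to 40.7 CPM with a median of 7.30, against 1.68 to 13.4 CPM in MZCS-0403 and 2.004 to 3.58 CPM in MZM-0403.

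Nfu_g_1_022498, the higher gene with the next largest opposite value called, had the highest day 21 level of the 100 genes in GRZ-D skin (12.93). In brain at day 35 it had 13.5, 15.9 and 33.1 CPM as lowest, median and highest in GRZ-D, against 14.6, 96.5, 13.1, 318 and 10.1 CPM in MZM-0403. The groups overlapped, and 2 MZM-0403 fish were far above the rest. Its log2 fold change was -2.31 ± 0.78 (adjusted p = 0.0124, edgeR), and without replicate 12 of MZM-0403 it was -0.88 (adjusted p = 0.350, edgeR). Without the brain libraries above 1% of skin-dominant genes it was -1.60 (adjusted p = 0.134, edgeR). At day 21 Nfu_g_1_022498 had 144, 83.8, 108 and 342 CPM in 4 GRZ-D brains and 12.7 to 15.1 CPM in the other 4, against 8.88 to 193 CPM in MZCS-0403 and 11.2 to 24.4 CPM in MZM-0403.

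The lower genes called against their direction at day 147 included genes whose libraries did not overlap. Nfu_g_1_006779 had 8.19, 14.2 and 34.6 CPM in GRZ-D brain at day 147 as lowest, median and highest, against 3.41, 7.93 and 4.26 CPM in MZCS-0403, with no overlap. Its log2 fold change was 1.65 ± 0.50 (adjusted p = 0.00587, edgeR). Over 17 alternatives this value ran from 1.08 to 2.1, and the call was lost in 1. At day 35 Nfu_g_1_006779 had 4.76, 6.98 and 16 CPM in GRZ-D, against 3.83, 5.998, 6.70, 9.45 and 5.15 CPM in MZM-0403, and these overlapped.

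Nfu_g_1_007434 changed the sign of its strain difference between ages, and its brain values also split within groups. In brain it had 31.7, 39.4 and 60.0 CPM in GRZ-D at day 35 as lowest, median and highest, against 157, 209, 30.8, 169 and 186 CPM in MZM-0403 and 76.1, 203, 216 and 166 CPM in MZCS-0403 of day 39. At day 147 it had 36.1, 41.5 and 53.7 CPM in GRZ-D, against 20.4, 19.7 and 13.96 CPM in MZCS-0403. GRZ-D was lower than MZCS-0403 at the younger age, by -1.93 ± 0.29 (adjusted p = 2.41e-07, edgeR), and higher at day 147, by 1.19 ± 0.35 (adjusted p = 0.00469, edgeR). Between those ages MZCS-0403 brain fell by 3.18 ± 0.40 on the log2 scale (adjusted p = 5.28e-09, edgeR), and the difference in GRZ-D was -0.06 ± 0.27 (adjusted p = 0.900, edgeR). Levels of Nfu_g_1_007434 at other ages followed neither a strain nor an age alone: GRZ-D brain held 111 to 182 CPM at day 100, MZM-0403 brain 166 to 249 CPM at day 287, and MZCS-0403 brain 24.6 and 28.6 CPM at day 287. At day 21 the GRZ-D brains fell into separate ranges, the upper of which overlapped both other strains, so the day 21 difference came mainly from the lower range. At day 35 a single MZM-0403 fish, with 30.8 CPM, lay below every GRZ-D fish.

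**Figure D4:**
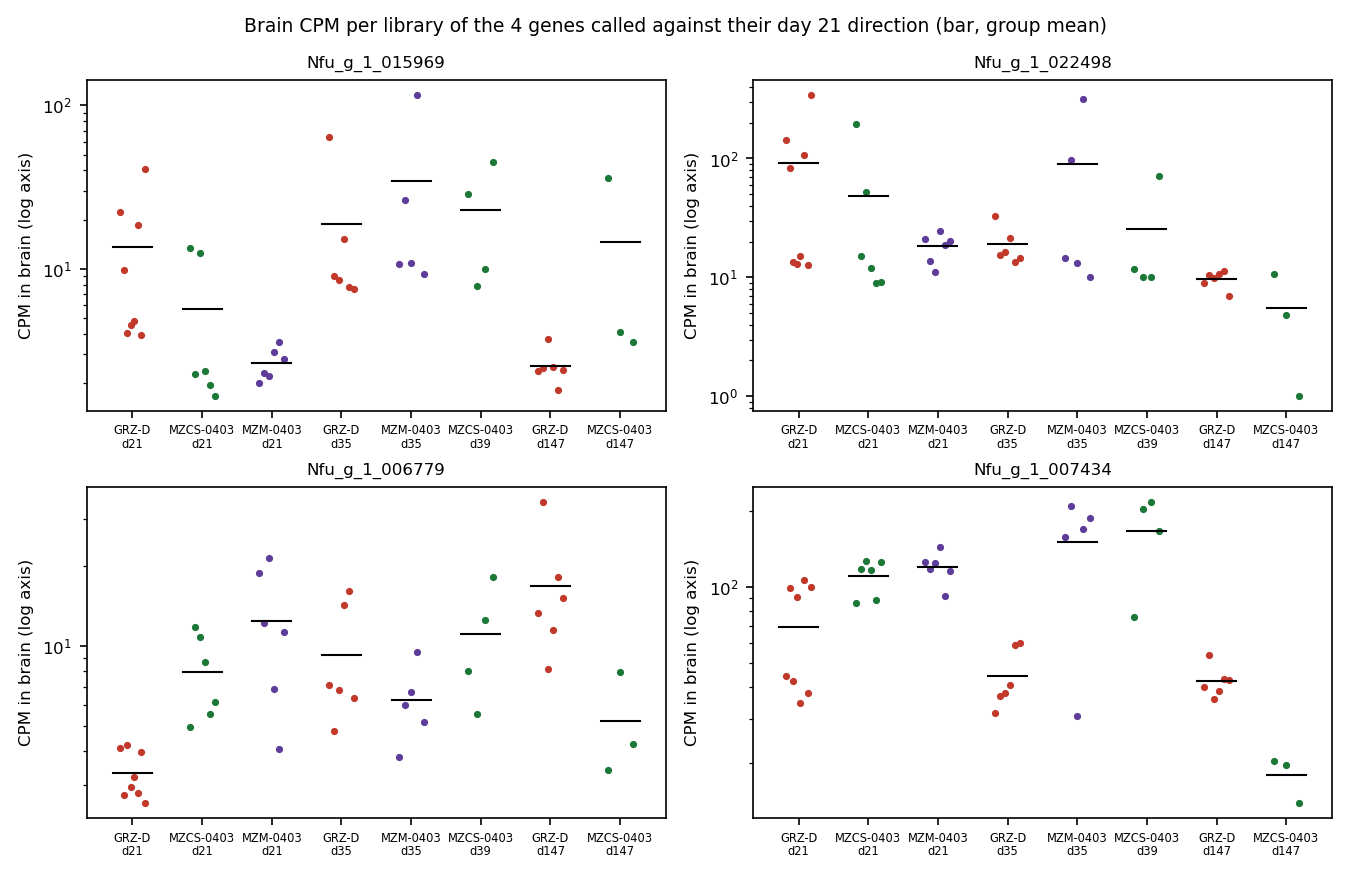
Brain CPM on a log axis in each library, by strain and age, of 4 genes called against their day 21 direction. These are the 2 higher and the 2 lower genes with the largest such differences at day 35 against MZM-0403 or at day 147. Points are fish and bars group means. Nfu_g_1_015969 and Nfu_g_1_022498 have single fish far above their groups, as with 318 CPM in 1 MZM-0403 fish of day 35 for Nfu_g_1_022498, whereas in Nfu_g_1_007434 all 3 MZCS-0403 fish of day 147 lie below every GRZ-D fish.

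With age, the strain levels in brain stayed apart for the higher genes. Their median level in GRZ-D brain was 4.22, 4.32, 4.45 and 4.30 at days 21, 35, 100 and 147, in MZCS-0403 brain 3.22, 3.33, 3.18 and 3.12 at days 21, 39, 147 and 287, and in MZM-0403 brain 2.93, 3.04 and 3.05 at days 21, 35 and 287. The lower genes had 2.95, 3.39, 3.12 and 3.32 in GRZ-D brain, 3.79, 4.04, 4.13 and 4.12 in MZCS-0403 brain and 3.96, 4.16 and 3.86 in MZM-0403 brain at the same ages. In skin the median level of the higher genes in GRZ-D was 4.19, 3.92, 4.54 and 4.59 over its 4 ages. These levels use column totals, with which the median log2 fold change of all genes between day 147 and day 35 in GRZ-D skin was 0.64, and with TMM that of the higher genes was 0.12.

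**Figure D5:**
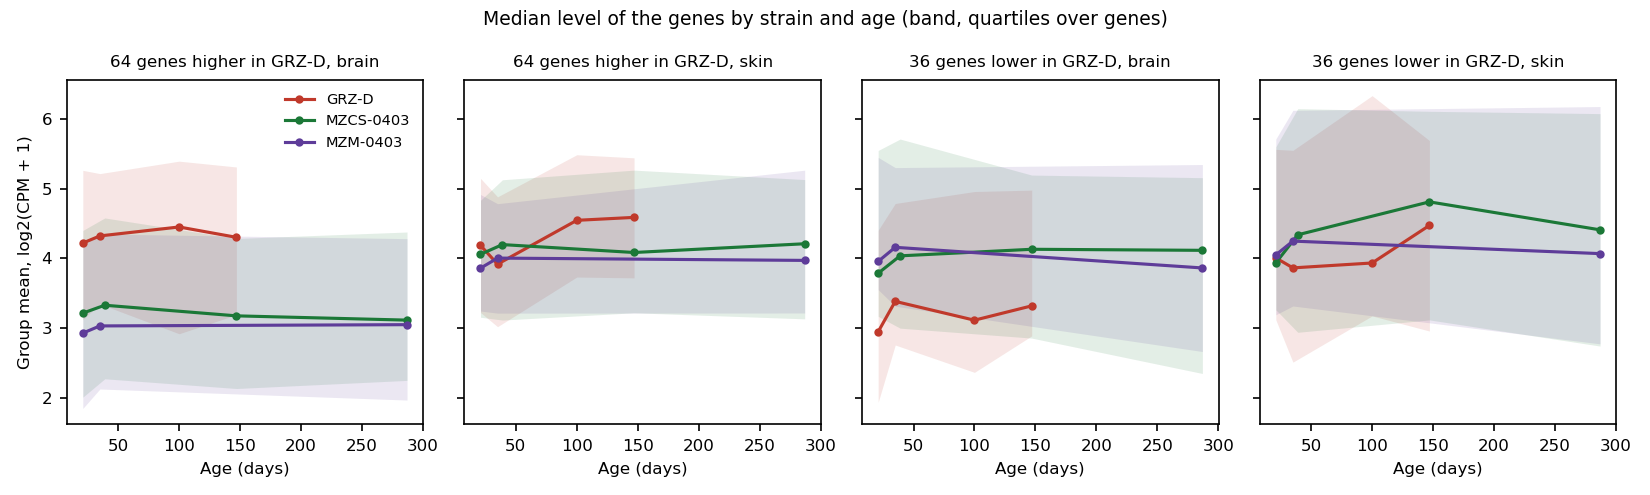
Median over genes of the group mean level, log2(CPM + 1), against age in days, for the 64 higher and the 36 lower genes in brain and skin of each strain. Bands span the quartiles over genes. The GRZ-D line of the higher genes in brain stays between 4.22 and 4.45 and the other strains between 2.93 and 3.33, while in skin the lines run close together at day 21.

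Between day 147 and day 35, 28 of the genes changed in GRZ-D brain, 17 upward and 11 downward, where 26.3% of all genes changed. In MZM-0403 brain 50 changed between day 287 and day 35, 18 upward and 32 downward, where 39.6% of all genes did. In MZCS-0403 brain 39 changed between day 147 and day 39, 18 upward and 21 downward, where 41.5% of all genes did. In GRZ-D skin 59 changed between day 147 and day 35, 31 upward and 28 downward, where 52.6% of all genes did. Column totals gave 54 upward and 11 downward there, with a median log2 fold change of all genes of 0.64. With TMM, 12.8% of all genes rose and 13.5% fell in GRZ-D brain, and 17.9% and 21.7% in MZM-0403 brain. In MZCS-0403 brain 19.4% rose and 22.2% fell, and in GRZ-D skin 27.7% and 24.9%. The shares of the 100 genes that changed with age in MZCS-0403 brain and GRZ-D brain and skin were thus close to those of all genes. Their number in brain moved with the libraries in the fit. Over all 84 brain libraries, those at odds with their tissue label included, it was 12 in GRZ-D, 24 in MZM-0403 and 28 in MZCS-0403. With only the groups compared it was 50, 31 and 17 in the same order of strains. The number of all genes called in these alternative fits is not given here, so these shifts cannot be set against those of all genes.

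The largest rises with age in GRZ-D brain were in Nfu_g_1_004001 and Nfu_g_1_021389, both lower genes. Nfu_g_1_004001 had 17.6, 40.2 and 68.3 CPM at day 147 as lowest, median and highest, against 8.04, 9.23 and 11.7 CPM at day 35, with no overlap, a log2 fold change of 2.02 ± 0.28 (adjusted p = 1.78e-07, edgeR). It also rose in MZCS-0403 brain, with 35.1, 49.0 and 62.0 CPM at day 147 against 10.2, 4.63, 5.94 and 5.599 CPM at day 39, by 2.89 ± 0.37 (adjusted p = 1.15e-08, edgeR), and in MZM-0403 brain at day 287 over day 35, by 1.43 ± 0.30 (adjusted p = 0.000126, edgeR). The 2 MZCS-0403 brains of day 287 held 10.1 and 9.03 CPM of Nfu_g_1_004001. Nfu_g_1_021389 had 19.7, 29.4 and 47.7 CPM in GRZ-D brain at day 147, against 6.20, 10.9 and 16.2 CPM at day 35, without overlap, and rose by 1.496 ± 0.31 (adjusted p = 0.000194, edgeR). Neither gene was called between the strains in any of the 3 later brain comparisons, where the adjusted p of Nfu_g_1_004001 was 0.193 to 0.503 and that of Nfu_g_1_021389 was 0.0618 to 0.243 (edgeR).

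The largest falls with age in GRZ-D brain were in Nfu_g_1_015969, by 2.87 ± 0.69 on the log2 scale (adjusted p = 0.0012, edgeR), and Nfu_g_1_024908, by 2.15 ± 0.48 (adjusted p = 0.000524, edgeR). Without GRZ-D replicate 1 of day 35 the log2 fold changes were -1.91 (adjusted p = 0.0246, edgeR) and -1.10 (adjusted p = 0.0404, edgeR). Over all 84 brain libraries both calls were lost, at -2.85 (adjusted p = 0.0921, edgeR) and -2.13 (adjusted p = 0.123, edgeR). That fit includes the libraries labelled brain that were at odds with their tissue label, and their part in the loss was not tested. Both are among the skin-dominant genes, and both were higher genes at day 21. Nfu_g_1_024908 was called against that direction in brain at day 35 against MZM-0403, at -1.56 ± 0.47 (adjusted p = 0.00497, edgeR). It was also called against it at day 147, at -1.49 ± 0.55 (adjusted p = 0.0237, edgeR). These values ran from -2.61 to -0.432 and from -1.75 to -0.932 over the alternatives, and neither call was kept in all. In skin at day 35 it was lower than in MZM-0403, by -0.96 ± 0.25 (adjusted p = 0.00177, edgeR). Nfu_g_1_024908 had 3.14, 5.69 and 7.51 CPM in GRZ-D brain at day 147 as lowest, median and highest, against 9.39, 12.1 and 88.7 CPM at day 35, and in skin 869 to 2261 CPM at day 35. The skin-dominant genes as a whole took 0.161% to 0.408% of brain counts in GRZ-D at day 147, against 0.257% to 0.866% at day 35, and the part of this in the falls was not tested.

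From fish to fish the median pairwise correlation of the genes was small, and no value for all genes was computed. A small median can hide sets of genes that vary together. Over the 39 brain libraries of the later ages, as deviations from the group means, the median pairwise correlation was 0.02 among all 100 genes, 0.02 among the higher genes and 0.01 among the lower genes. The points share libraries, and genes are not independent replicates, so this is a description. In the same libraries 4 of the 100 genes had a correlation above 0.7 with the share of skin-dominant genes and 7 above 0.5, with a median of 0.11 over all 100. The 6 genes with a day 21 level above 8 in GRZ-D skin had a median of 0.39. Among the leading genes this correlation was 0.53 in Nfu_g_1_004257, 0.44 in Nfu_g_1_008420, 0.18 in Nfu_g_1_012743 and 0.11 in Nfu_g_1_010938. The shares of all genes above 0.7 and 0.5 were not computed, so the counts of 4 and 7 cannot be set against them.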

How the data were processed

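RNA from brain and skin of each fish was extracted with RNeasy kits and made into TruSeq RNA v2 libraries, per the labels' protocols. The submitters' processing notes name bcl2fastq 1.8.4, STAR 2.5.1b and featureCounts 1.5.0, and the genome build and annotation are not given in the sources used here. The authors deposited 1 table of raw counts per gene ID, which was used as deposited; every column was matched to a sample by name, and none of the 26739 IDs matched the RefSeq gene table. The 100 genes and all lists were chosen with earlier results of these data known. They were found with log2(CPM + 1) from column totals, whereas the tests scaled libraries by TMM.

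Genes were tested in R 4.3.3 with edgeR 4.0.16 (quasi-likelihood F-test, robust, genes filtered by group at a minimum count of 10), with Benjamini-Hochberg adjustment over all genes tested and calls at an adjusted p under 0.05. All 100 genes passed the filter in every comparison. Each tissue was fitted over its 59 male libraries other than day 49, with 1 mean per group. Comparisons between tissues used joint fits of the groups of the strains compared. Standard errors were derived from the log2 fold change and F. With 1 library per fish and tissue, p-values of comparisons within a tissue measure the spread between fish. The joint fits treated brain and skin of a fish as separate libraries, so their p-values leave out the pairing. Brain and skin of a fish are paired by the labels; deviations from group means of the same fish correlated from -0.107 to 0.429, and a fit with the fish as a block was an alternative, as was DESeq2 1.42.0. The procedure was tested on simulated data.

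Named genes, at most 2 each way per list, are the first by day 21 difference; the largest smaller fold change among genes called at day 35 against MZM-0403 and at day 147 without overlap and with at least 5 CPM in the higher group; the largest called against their direction; and the largest age changes in GRZ-D brain. Samples were grouped by strain, age, sex and tissue as labelled. Females and day 49 entered no comparison of groups, and only the fits over all 84 libraries of a tissue held them. Values of 5 MZM-0403 females of day 147 are described without a test. Counts ranged from 12376397 to 41254724 per library used, and low counts limit the precision of fold changes of the rarest genes.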

Additional observations from a re-analysis of the deposited data

Results flagged for a closer look

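The 4 leading genes were examined in 32 sets of values, each 1 gene in 1 group of at least 4 libraries. Sets of different genes share libraries, so the number flagged cannot be set against a chance rate of about 1 in 20. In 11 of them a fish stood far from its group. For Nfu_g_1_010938 this was MZM-0403 replicate 12 at day 35, with 1.915 CPM in brain. For Nfu_g_1_004257 it was GRZ-D replicate 5 at day 35, with 10.29 CPM in brain. Nfu_g_1_008420 had 9.051 CPM in the brain of GRZ-D replicate 1 at day 35, 60.82 CPM in the skin of MZCS-0403 replicate 4 at day 39 and 32.73 CPM in the skin of GRZ-D replicate 4 at day 147. Nfu_g_1_012743 had 1.354 CPM in the brain of GRZ-D replicate 1, 52.94 CPM in the skin of GRZ-D replicate 5 and 11.43 CPM in the brain of MZM-0403 replicate 7, all at day 35. It also had 3.576 CPM in the brain of MZCS-0403 replicate 4 at day 39, and in GRZ-D at day 147 it had 0.3832 CPM in the brain of replicate 2 and 57.77 CPM in the skin of replicate 5. None of the brain values closed the gap between the strains.

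The strain difference differed between brain and skin in the joint fits (edgeR, called at an adjusted p under 0.05). At day 35 against MZM-0403 the brain difference minus the skin difference, on the log2 scale, was 5.179 for Nfu_g_1_010938, 3.244 for Nfu_g_1_004257, -4.81 for Nfu_g_1_008420 and -2.572 for Nfu_g_1_012743. At day 147 against MZCS-0403 it was 4.772 for Nfu_g_1_010938, 4.165 for Nfu_g_1_004257 and -2.782 for Nfu_g_1_008420.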

How the results depend on the processing

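Of the counts of genes called in each comparison, 246 alternative values stayed within 1.5 times the count reported and 12 did not, and none of the named genes changed sign. Of the 12, 9 were age calls in brain. The alternative over all 84 libraries of a tissue includes those at odds with their tissue label. For GRZ-D the number of age calls, against 28 reported, was 12 over all 84 libraries of the tissue, 50 with only the groups compared and 52 with these groups and a replicate block, which changes 2 choices at once here and below. For MZM-0403, against 50, it was 24 over all 84 libraries, 31 with only the groups compared, 9 with the replicate block and 32 without the brain libraries above 1% of skin-dominant genes. For MZCS-0403, against 39, it was 17 with only the groups compared and 8 with the replicate block. The number of all genes called in these alternative age fits is not given here, so the shifts cannot be set against it. In skin the count in the day 21 direction at day 147 was 13 with only the groups compared and 13 with the replicate block, against 31, and at day 35 against MZM-0403 it was 0 with the replicate block, which had 2 shared numbers and called 0 genes of all, against 30. The cause was not tested. Across groups the fish share only a number. In no comparison of 3 or more pairs did every pair of equal numbers correlate above 0.1. Brain and skin of the same fish did so in 3 of 3 pairs in MZCS-0403 at day 147. In GRZ-D, only 2 of 6 pairs did so at day 35 and 2 of 6 at day 147. This check therefore cannot decide whether equal numbers mark a pairing. Nfu_g_1_006779, called at day 147 in brain, had 1.08 with the replicate block (adjusted p = 0.0983, edgeR).

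In brain, 10985, 11815 and 10061 genes were called over all against MZM-0403 at day 35, MZCS-0403 at day 39 and MZCS-0403 at day 147. Over all 84 libraries, those at odds with their tissue label included, they numbered 7030, 7781 and 5975. With the replicate block they numbered 4798, 6185 and 5958. The counts of the 100 genes were 69, 64 and 54 over all 84 libraries and 59, 66 and 64 with the block. For the difference between tissues at day 147, DESeq2 called 3624 genes, against 2196, and 27 of the 100. Leaving out 1 library at a time gave 76 to 77, 71 to 77 and 60 to 67 in these brain comparisons. It gave 27 to 31, 29 to 32 and 23 to 33 in skin, and 51 to 66, 51 to 55 and 15 to 24 for the difference between tissues. For age it gave 23 to 29 in GRZ-D, 43 to 50 in MZM-0403 and 28 to 39 in MZCS-0403 brain, and 54 to 61 in GRZ-D skin. Over all genes, these fits called 10037 to 12042 in brain against MZM-0403 at day 35. Against MZCS-0403 at day 39 they called 10906 to 11436. For the other ranges the number of all genes called is not given here, so they are a description only. Of the 100 genes, 91 were also chosen with a pseudocount of 0.5, 75 with group medians, 88 with TMM-scaled CPM and 88 to 97 without 1 day 21 fish, with 0 changes of direction.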

Other observations

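Some MZM-0403 females of day 147 had higher brain values of Nfu_g_1_010938 or Nfu_g_1_004257 than the MZM-0403 males of day 35. The series holds no MZM-0403 males of day 147, so sex and age cannot be told apart here. In the 5 MZM-0403 females of day 147, Nfu_g_1_010938 had 12.2, 0.0795, 2.93, 0.180 and 0.135 CPM in brain, and Nfu_g_1_004257 had 6.17, 0.119, 0.183, 0.0300 and 0.0451 CPM. The first of these brains held 4.88% of its counts in the skin-dominant genes, and the others 0.531%, 0.481%, 0.136% and 0.123%. Nfu_g_1_008420 had 129, 101.1, 115, 145 and 116 CPM in the same brains, all far above the GRZ-D males.

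In the 8 GRZ-D males of day 21, brain values of Nfu_g_1_007434 fell into 2 separate ranges. Replicates 1, 3, 5 and 7 had 34.8 to 44.5 CPM, and replicates 2, 4, 6 and 8 had 91.0 to 106 CPM, against 85.9 to 127 CPM in MZCS-0403 and 92.2 to 143 CPM in MZM-0403. The labels give no difference between these GRZ-D fish.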
